A study of Mus musculus with 35 samples.

Results

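The matrix metalloproteinases (MMPs) and tissue inhibitors of metalloproteinases (TIMPs) described here are 9 of the 18194 genes on the arrays: Mmp2, Mmp3, Mmp9, Mmp10, Mmp13, Mmp14, Timp1, Timp2 and Timp3. They were chosen by name. Each was read from a probe set annotated with that symbol and no other, the brightest on average where a gene has several, and the remaining ones served as a check. All 9 reached the lower limit for testing, a mean of log2 4.40 in at least 1 group, as did 14135 genes in all.

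Primary mouse embryonic fibroblasts (MEFs) of the C57BL6/J strain, without any genetic change, were exposed to methyl methanesulfonate (MMS), an agent that methylates DNA and other molecules, at 40 µg/mL in fresh medium, or received fresh medium without it. RNA was taken from MMS cells at 1, 8 and 24 h (4 arrays each) and at 72 h (3 arrays), and from control cells at 1, 8, 24 and 72 h and at 0 h (4 arrays each). Per the labels the cells came from day 15.5 embryos and were expanded for 2 passages, while the study's methods give a younger embryo and more passages. A bulk culture of this kind is a mixed population, so fewer cells of a type and less RNA per cell cannot be told apart.

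MMPs are zinc-dependent proteases that cut collagens and other proteins of the extracellular matrix, and most are secreted as inactive precursors. TIMPs are secreted proteins that bind the active site and block it. Fibroblasts are a main source of both in connective tissue. In mice, as in humans, Mmp3, Mmp10 and Mmp13 lie in an MMP gene cluster and are known for induction through the transcription factor AP-1. Mmp2, Mmp14 and Timp2 are known for steady expression in fibroblasts and for a joint role in activating the Mmp2 precursor at the cell surface.

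The promoters of the 3 clustered members each hold an AP-1 and a TATA motif, at differing distances. They are shown here because Mmp13 and Mmp10 had the largest MMS effects of the 9 members. On chromosome 9 of the mouse assembly GRCm38.p6 the RefSeq order is Mmp13, Mmp12, Mmp1b, Mmp3, Mmp1a, Mmp10, Mmp8, Mmp27, Mmp20 and Mmp7. The 120 bases before each transcript start are on the plus strand, at chr9:7272394-7272513 for Mmp13, chr9:7445702-7445821 for Mmp3 and chr9:7502222-7502341 for Mmp10. Capitals mark the AP-1 motif TGANTCA and the TATA motif TATAAA.
Mmp13: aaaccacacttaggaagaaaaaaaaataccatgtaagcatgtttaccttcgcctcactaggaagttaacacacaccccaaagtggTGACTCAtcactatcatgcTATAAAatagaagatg
Mmp3: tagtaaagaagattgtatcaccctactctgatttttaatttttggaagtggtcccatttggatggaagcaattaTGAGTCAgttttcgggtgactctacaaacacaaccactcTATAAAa
Mmp10: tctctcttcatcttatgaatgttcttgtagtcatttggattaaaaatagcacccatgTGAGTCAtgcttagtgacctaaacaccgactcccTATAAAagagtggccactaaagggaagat

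The AP-1 motif began 35, 46 and 63 bases before the start of Mmp13, Mmp3 and Mmp10, and the TATA motif 16, 7 and 29 bases before it. Both motifs were searched on both strands from 250 bases before to 50 bases after the start. Of 32851 RefSeq promoters of this length, 7.81% held the AP-1 motif and 13.6% the TATA motif. Of the other 6 members, Mmp14, Timp1, Timp2 and Timp3 were in the promoter table (7 of the 9 members in all), and these 4 held neither motif. Each held the GC box GGGCGG on one of the strands, which 35.7% of all promoters held, and they are shown as the contrasting layout, with the GC box in capitals. The window is at chr14:54431478-54431597 for Mmp14 and chrX:20870046-20870165 for Timp1, both on the plus strand, at chr11:118355412-118355531 on the minus strand for Timp2, and at chr10:86300292-86300411 on the plus strand for Timp3.
Mmp14: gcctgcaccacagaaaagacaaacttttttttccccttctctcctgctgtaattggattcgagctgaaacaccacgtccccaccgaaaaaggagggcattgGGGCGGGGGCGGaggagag
Timp1: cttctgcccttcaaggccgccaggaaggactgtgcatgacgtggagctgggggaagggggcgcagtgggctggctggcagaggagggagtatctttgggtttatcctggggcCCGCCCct
Timp2: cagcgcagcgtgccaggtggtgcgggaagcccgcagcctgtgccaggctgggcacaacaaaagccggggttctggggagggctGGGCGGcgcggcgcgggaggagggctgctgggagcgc
Timp3: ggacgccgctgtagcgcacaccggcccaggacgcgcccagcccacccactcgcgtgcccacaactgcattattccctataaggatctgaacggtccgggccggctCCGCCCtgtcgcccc

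A motif match is a description of letters, and no binding was measured in these cells. Mmp3, which holds both motifs, was lower with MMS at 8 h, and a link between motifs and MMS effects was not tested.

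**Figure D1:**
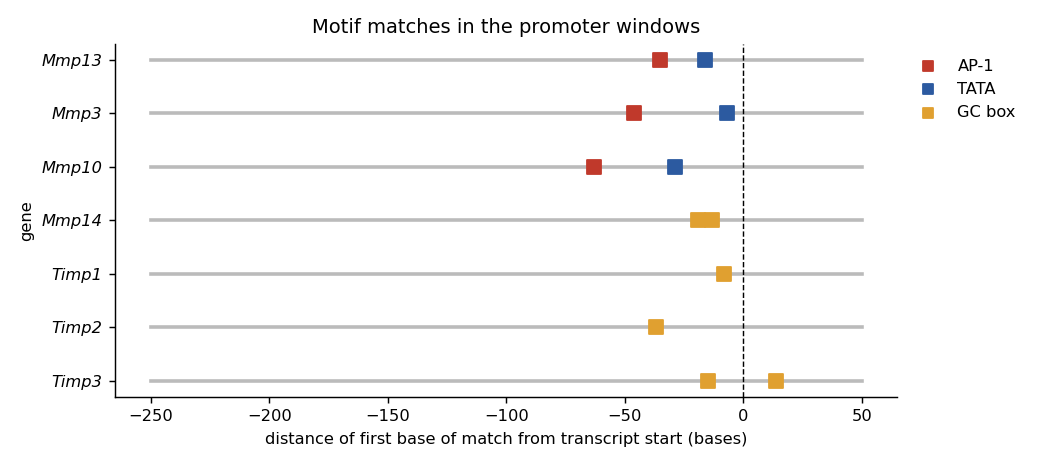
Positions of AP-1, TATA and GC box motif matches relative to the transcript start (x axis, bases, negative before the start, dashed line at 0) in the promoter windows of 7 members (y axis). Mmp13, Mmp3 and Mmp10 hold an AP-1 and a TATA match, and Mmp14 and the 3 TIMPs hold GC box matches, 1 of those of Timp3 lying 14 bases after the start.

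Some arrays stood apart before any comparison. The 8 arrays of 8 h, MMS and control, lay at 47.3 to 83.3 on the principal component that carried 44.5% of the variance, against -42.6 to 3.85 for the other 27. The mean level of 20 macrophage markers was 7.20 to 7.39 in MMS 8 h arrays and 7.79 to 7.93 in control 8 h arrays, and the group means elsewhere were 4.33 to 4.73. Changes of the MMS effect from 8 to 24 h span this difference of the 8 h arrays, and its part in them was not tested. Fibroblast markers were present throughout, with 17 of 17 above the limit in every group except MMS 24 h, with 16. Of 19 intestinal epithelium markers, 18 were raised in control 0 h replicate 3, 16 in MMS 24 h replicate 3, 14 in MMS 1 h replicate 3 and 11 in MMS 72 h replicate 3. Without these 4 arrays the members' log2 effects of MMS moved by at most 0.31. The only call of MMS against control that changed was that of Mmp13 at 72 h, called lower (-0.83, adjusted p 0.0086). The MMS 72 h arrays then left, 4.33 and 4.09 for Mmp13, were only 2 and lay under the limit, so the size of this fall is uncertain. In controls against 0 h, Timp2 and Timp3 at 8 h (adjusted p 0.043 and 0.039) and Mmp14 at 24 h (adjusted p 0.040) were then called lower and Timp3 at 24 h was no longer called (adjusted p 0.23), and the change of the effect on Mmp10 from 8 to 24 h gained a call.

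With MMS, 2 of the 9 genes were higher and 5 lower at 8 h, 3 were higher and 4 lower after 24 h, and 3 were higher and 1 lower after 72 h, by limma with an adjusted p under 0.05. At 1 h none was called in either direction by limma, and 2 were higher at an unadjusted p under 0.05. The same call was made for 0.389% of all genes tested at 1 h (0.361% higher and 0.0283% lower), 53.7% at 8 h (28.7% higher and 25% lower), 44.5% at 24 h (25% higher and 19.4% lower) and 20.5% at 72 h (10.1% higher and 10.4% lower). Of the members, 77.8% were called at 8 h, 77.8% at 24 h and 44.4% at 72 h, in a set chosen with earlier results known and without a test of the share. The largest rise was that of Mmp13 at 24 h and the largest fall that of Mmp2 at 24 h. Over the 9 members the median log2 fold change was -0.37 at 8 h, -0.12 at 24 h and 0.10 at 72 h, beside 0.06, 0.01 and -0.01 over all genes tested.

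Mmp13 encodes collagenase 3, which cuts fibrillar collagens, and its probe set is 1417256_at. At 24 h the MMS arrays read 7.99, 8.03, 7.82 and 7.94, against 3.09, 3.21, 3.23 and 3.37 in controls. All 4 controls lay under the limit of 4.40, close to the arrays' background, and no array of the other groups reached the MMS 24 h level. The log2 fold change was 4.72 ± 0.22 (SE, n = 4 each, adjusted p 5.9e-17), and set against the limit in place of the control level this is at least 11.7-fold higher.

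At 8 h Mmp13 read 6.30, 6.94, 6.88 and 6.67 in MMS cells and 5.72, 6.31, 6.27 and 6.21 in control cells. These ranges met at their edges, and the difference of 0.57 ± 0.22 (adjusted p 0.029) was lost without control 8 h replicate 1 (0.43, adjusted p 0.12), without MMS 8 h replicate 2 (0.49, adjusted p 0.088) or without MMS 8 h replicate 3 (0.51, adjusted p 0.078). At 72 h the arrays of Mmp13 overlapped widely, with 4.33, 4.09 and 5.14 after MMS and 5.40, 4.41, 4.75 and 5.56 in controls. The difference at 72 h was -0.51 ± 0.24 (adjusted p 0.14). It passed the threshold without MMS 72 h replicate 3, one of the arrays with intestinal markers (-0.83, adjusted p 0.017), and without control 72 h replicate 2 (-0.72, adjusted p 0.028). Without MMS 72 h replicate 3 the MMS arrays left, 4.33 and 4.09, lay under the limit. The MMS effect on Mmp13 was larger at 24 h than at 8 h, the fitted difference being 4.15 (adjusted p 4.0e-12), and smaller at 72 h than at 24 h, with a fitted difference of -5.23 (adjusted p 3.0e-13). Both rest on 24 h controls under the limit, and with the limit in their place the differences were 2.97 and -4.06.

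Mmp10, or stromelysin 2, has a broad range of matrix substrates and can activate other MMP precursors. Its probe set 1420450_at read 8.46, 8.23, 8.29 and 8.26 in MMS 8 h arrays, against 6.31, 6.43, 6.47 and 6.66 in control 8 h arrays. At 24 h it read 6.58, 6.82, 6.55 and 6.61 after MMS, against 4.38, 4.25, 4.36 and 4.42 in controls. At neither time did the arrays overlap, and at 24 h 3 of the 4 controls lay under the limit.

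The rise of Mmp10 was 3.59-fold at 8 h (log2 1.84 ± 0.16, adjusted p 2.6e-11) and by the fit 4.88-fold at 24 h (log2 2.29 ± 0.16, adjusted p 3.8e-13). As the mean of the 24 h controls, 4.35, lay under the limit, the rise at 24 h was at least 4.72-fold with the limit in its place. The difference between the effects at 24 and 8 h was 0.44 ± 0.22 (95% interval -0.01 to 0.90), no call over all arrays (adjusted p 0.10). It was called in a fit of these 4 groups alone (adjusted p 0.0056), with array weights (0.48, adjusted p 0.049) and without the 4 arrays with intestinal markers (0.48, adjusted p 0.043). At 72 h Mmp10 read 4.26, 4.58 and 4.90 in MMS cells and 4.66, 4.57, 4.24 and 4.43 in control cells, a difference of 0.11 ± 0.17 (adjusted p 0.77). The effect at 72 h was below that at 24 h by log2 -2.18 (adjusted p 1.3e-08), or -2.13 with the limit in place of the 24 h controls.

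Mmp3, stromelysin 1, digests proteoglycans and other matrix proteins and activates MMP precursors. On 1418945_at its MMS effect turned round between 8 and 24 h. At 8 h the MMS arrays read 6.20, 6.09, 6.28 and 6.46, below the controls at 6.71, 6.93, 7.18 and 6.98. At 24 h they read 5.58, 5.85, 5.40 and 5.64, above the controls at 4.95, 4.70, 5.00 and 5.26. At 72 h the MMS arrays read 6.66, 6.85 and 6.60, against 5.96, 5.77, 6.25 and 6.16 in controls.

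No MMS array of Mmp3 overlapped a control array at these 3 times. The log2 fold change was -0.69 ± 0.13 at 8 h (adjusted p 6.1e-05), 0.64 ± 0.13 at 24 h (adjusted p 0.00021) and 0.67 ± 0.14 at 72 h (adjusted p 0.00088). The change of effect between 8 and 24 h was 1.33 (adjusted p 1.0e-06), and between 24 and 72 h it was 0.03 (adjusted p 0.95).

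Mmp9, gelatinase B, cuts denatured collagen and basement membrane collagen and is known as a product of leukocytes, macrophages included. Its probe set 1416298_at read 6.09, 6.28, 6.29 and 6.24 in MMS 8 h arrays and 5.93, 5.82, 6.57 and 7.08 in control 8 h arrays, and 4.34 to 5.22 in all others. The controls at 8 h were spread to both sides of the MMS arrays. MMS gave no call for Mmp9 at any time, with log2 fold changes of 0.14, -0.13, -0.12 and 0.10 at 1, 8, 24 and 72 h. The 95% interval of the difference was -0.47 to 0.21 at 8 h and -0.46 to 0.22 at 24 h.

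**Figure D2:**
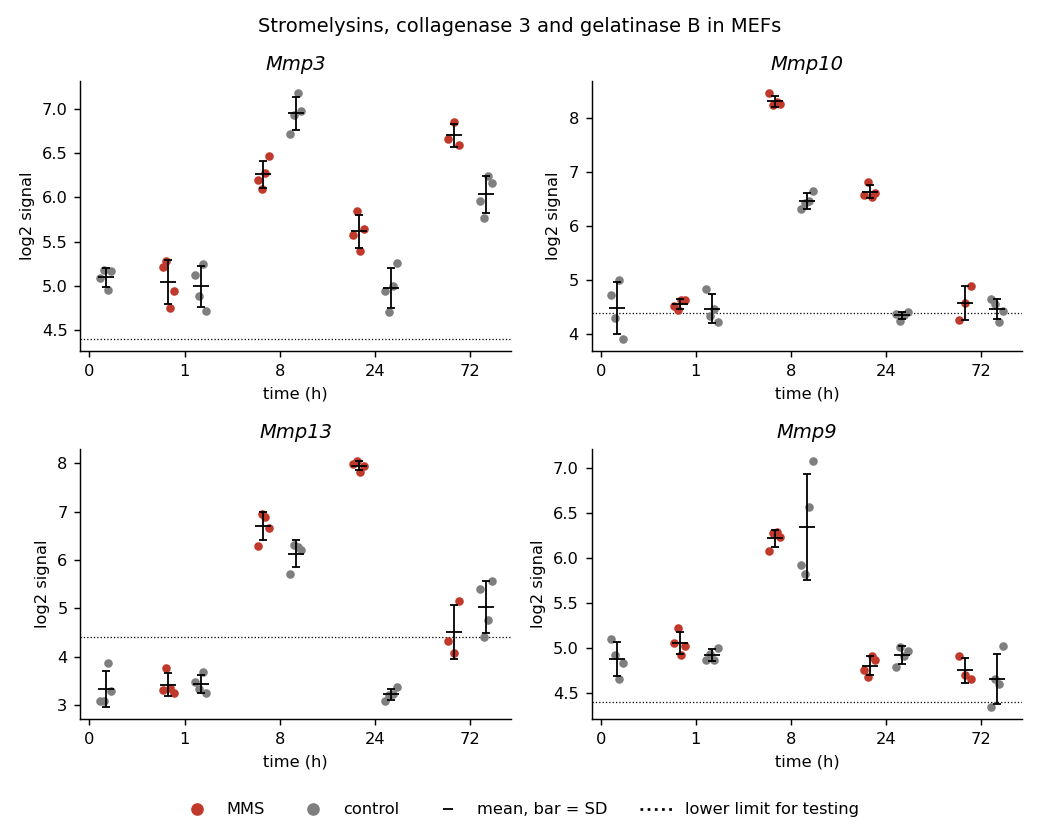
Log2 signal of Mmp3, Mmp10, Mmp13 and Mmp9 (y axis) in each array by time (x axis, hours, evenly spaced), with MMS in red to the left of control in grey, bars giving mean and SD and the dotted line the lower limit for testing of 4.40. Mmp13 at 24 h lies between 7.82 and 8.03 after MMS and between 3.09 and 3.37 in controls, and Mmp9 is raised at 8 h in both.

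Mmp2, gelatinase A, also digests denatured collagen. On 1439364_a_at the MMS arrays at 8 h read 9.39, 9.25, 9.26 and 9.41, against 9.58, 9.82, 9.70 and 9.76 in controls. At 24 h the MMS arrays read 10.52, 10.57, 10.89 and 10.59, against 11.86, 11.67, 11.58 and 11.66 in controls. At 72 h they read 12.12, 11.67 and 11.62, against 12.55, 12.32, 12.34 and 12.29 in controls.

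Every MMS array of Mmp2 lay below every control array at 8, 24 and 72 h. The log2 fold change was -0.39 ± 0.09 at 8 h (adjusted p 0.00060), -1.05 ± 0.09 at 24 h (2.07-fold lower, adjusted p 6.1e-11) and -0.57 ± 0.10 at 72 h (adjusted p 5.2e-05). The effect deepened by -0.66 between 8 and 24 h (adjusted p 0.00010) and was smaller in size again at 72 h, by 0.48 (adjusted p 0.0068). A further probe set of Mmp2 gave -0.42, -1.08 and -0.55 at the same times.

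Mmp14 encodes the membrane-type metalloproteinase MT1-MMP, which cuts collagen at the cell surface and activates the Mmp2 precursor together with Timp2. Its probe set 1448383_at read 10.65, 10.63, 10.76 and 10.60 in MMS 8 h arrays and 11.40, 11.56, 11.37 and 11.57 in control 8 h arrays. These groups were well apart, and the log2 fold change was -0.81 ± 0.08 (1.76-fold lower, adjusted p 4.6e-10). At 24 h Mmp14 read 11.92, 12.18, 12.05 and 12.04 after MMS and 12.08, 11.82, 11.75 and 11.86 in controls, which overlap. The difference at 24 h was 0.17 ± 0.08 (adjusted p 0.095). It passed the threshold without control 24 h replicate 1 (0.23, adjusted p 0.020) or MMS 24 h replicate 1 (0.21, adjusted p 0.0499) and with array weights (0.20, adjusted p 0.015). The other probe sets of Mmp14 gave 0.26 and, on 1440920_at, -0.20 at 24 h, neither called. At 72 h the MMS arrays read 12.21, 12.34 and 12.30, just below the controls at 12.42, 12.35, 12.45 and 12.44, and the difference of -0.13 ± 0.09 was no call (adjusted p 0.35). The MMS effect on Mmp14 moved up by 0.98 between 8 and 24 h (adjusted p 2.8e-08), by 1.13 on a further probe set and by 0.41 on 1440920_at, all 3 called.

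All 3 TIMPs were lower with MMS at 24 h and none was higher at 8 or 24 h. At 72 h Timp1 and Timp3 were higher with MMS, and Timp2 did not differ by the test on the probe set used. Across the 9 members the MMS effect differed between 24 and 8 h for 6 genes, 3 upward and 3 downward, beside 45.6% of all genes (23.3% upward and 22.2% downward), and between 72 and 24 h for 6 genes, 4 upward and 2 downward, beside 29% of all genes (12.4% upward and 16.5% downward). For each TIMP the effect at 72 h was above that at 24 h, by 0.95 for Timp1 (adjusted p 7.9e-09), 0.43 for Timp2 (adjusted p 1.0e-05) and 1.29 for Timp3 (adjusted p 1.2e-10).

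Timp1 is the inhibitor whose gene lies on the X chromosome and which binds most secreted MMPs. On 1460227_at it read 13.48, 13.48, 13.51 and 13.52 in MMS 8 h arrays and 13.45, 13.45, 13.48 and 13.50 in control 8 h arrays, a difference of 0.03 ± 0.07 (adjusted p 0.77). At 24 h it read 13.12, 13.07, 12.85 and 13.07 after MMS, against 13.46, 13.43, 13.43 and 13.44 in controls. The MMS arrays were all lower there, with the array that carried intestinal markers lowest, by -0.41 ± 0.07 (adjusted p 6.3e-06), and without the arrays with intestinal markers by -0.35 (adjusted p 1.7e-05). At 72 h Timp1 read 13.02, 12.74 and 12.82 after MMS, against 12.23, 12.37, 12.35 and 12.32 in controls, and the MMS arrays were all higher, by 0.54 ± 0.07 (1.45-fold, adjusted p 1.1e-06).

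Timp2 inhibits MMPs and also takes part in activating the Mmp2 precursor on MT1-MMP. Its probe set 1460287_at read 12.57, 12.51, 12.60 and 12.60 in MMS 8 h arrays and 13.05, 13.06, 13.06 and 13.14 in control 8 h arrays. At 24 h it read 12.79, 12.74, 12.90 and 12.78 after MMS, against 13.26, 13.26, 13.20 and 13.23 in controls. At both times every MMS array was below every control. The log2 fold change was -0.51 ± 0.05 at 8 h (adjusted p 1.2e-10) and -0.43 ± 0.05 at 24 h (adjusted p 5.6e-09). Over all 6 probe sets it was -0.73 to 0.03 at 8 h (5 called lower) and -0.99 to -0.35 at 24 h (all lower). At 72 h the groups overlapped, at 13.54, 13.43 and 13.40 after MMS and 13.48, 13.48, 13.46 and 13.39 in controls, with a 95% interval of the difference of -0.10 to 0.11. The 6 probe sets of Timp2 gave -0.24 to 0.003 at 72 h, with 1 called lower.

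Timp3 stays bound to the matrix and also inhibits several ADAM and ADAMTS proteases. On 1449335_at it read 11.10, 11.30, 11.21 and 11.25 in MMS 8 h arrays, against 11.63, 11.58, 11.63 and 11.51 in controls. At 24 h it read 10.84, 10.76, 10.97 and 10.92 after MMS, against 11.99, 11.89, 11.82 and 11.81 in controls. At 72 h the order was the other way, with 12.43, 12.49 and 12.31 after MMS and 12.22, 12.06, 12.11 and 12.12 in controls.

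The arrays of Timp3 did not overlap at these 3 times. The log2 fold change was -0.37 ± 0.07 at 8 h (adjusted p 7.1e-05), -1.01 ± 0.07 at 24 h (2.01-fold lower, adjusted p 1.1e-12) and 0.28 ± 0.08 at 72 h (adjusted p 0.0096). The call at 72 h was lost without MMS 72 h replicate 2 (0.24, adjusted p 0.066), while the other 3 probe sets of Timp3 gave larger differences there, up to 0.88.

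**Figure D3:**
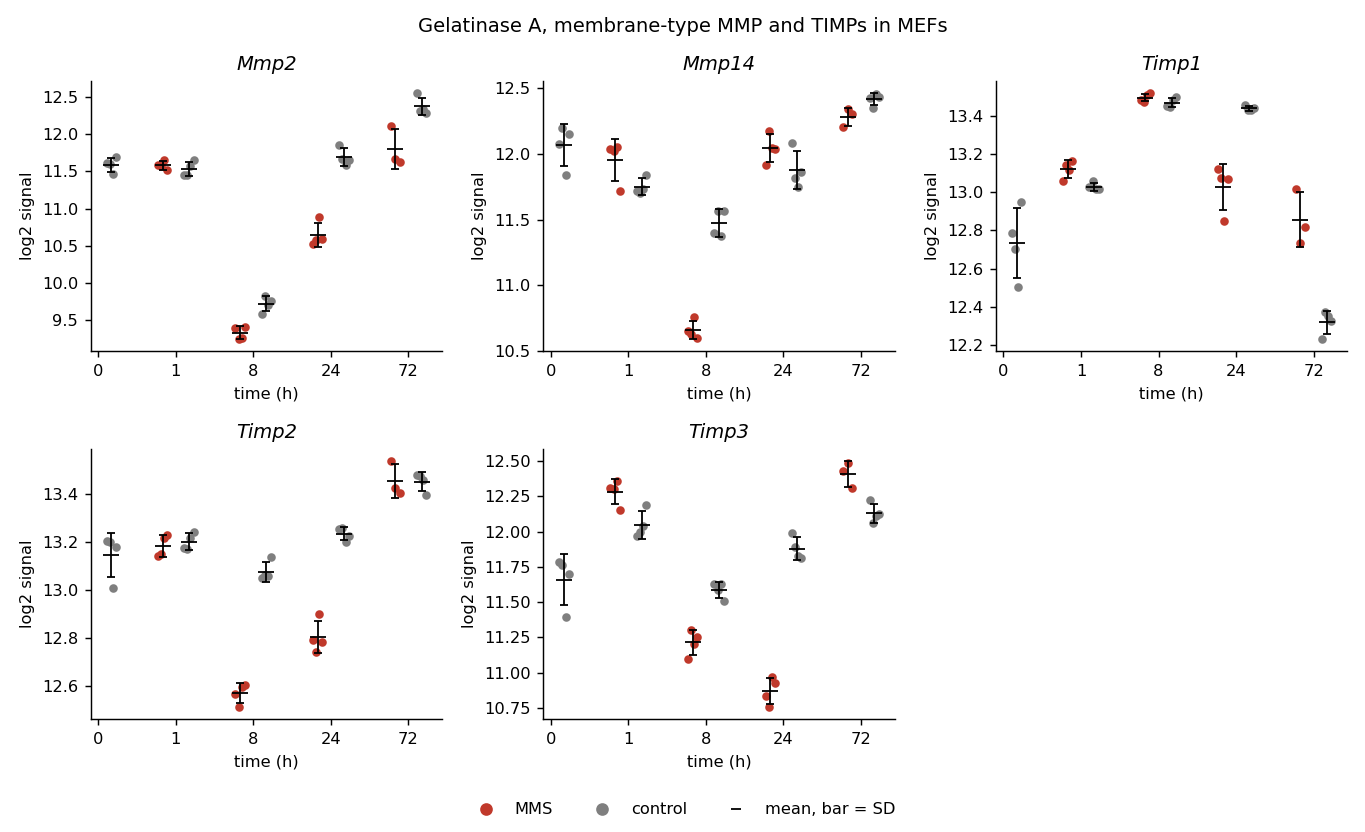
Log2 signal of Mmp2, Mmp14, Timp1, Timp2 and Timp3 (y axis, a scale of its own in each panel) in each array by time (x axis, hours, evenly spaced), with MMS in red to the left of control in grey and bars giving mean and SD. At 24 h the MMS arrays of Mmp2 and of the 3 TIMPs lie below all controls, and at 72 h those of Timp1 and Timp3 lie above.

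At 1 h no member was called. The largest differences were 0.23 ± 0.07 for Timp3 (adjusted p 0.26) and 0.21 ± 0.08 for Mmp14 (adjusted p 0.47). Timp3 read 12.31, 12.30, 12.36 and 12.16 in MMS 1 h arrays and 11.97, 11.99, 12.04 and 12.19 in control 1 h arrays, overlapping through one array of each group. Both genes passed the threshold when arrays were weighted by their quality (0.26, adjusted p 0.0035 for Timp3 and 0.23, adjusted p 0.028 for Mmp14). The other 7 members differed by -0.02 to 0.14.

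**Figure D4:**
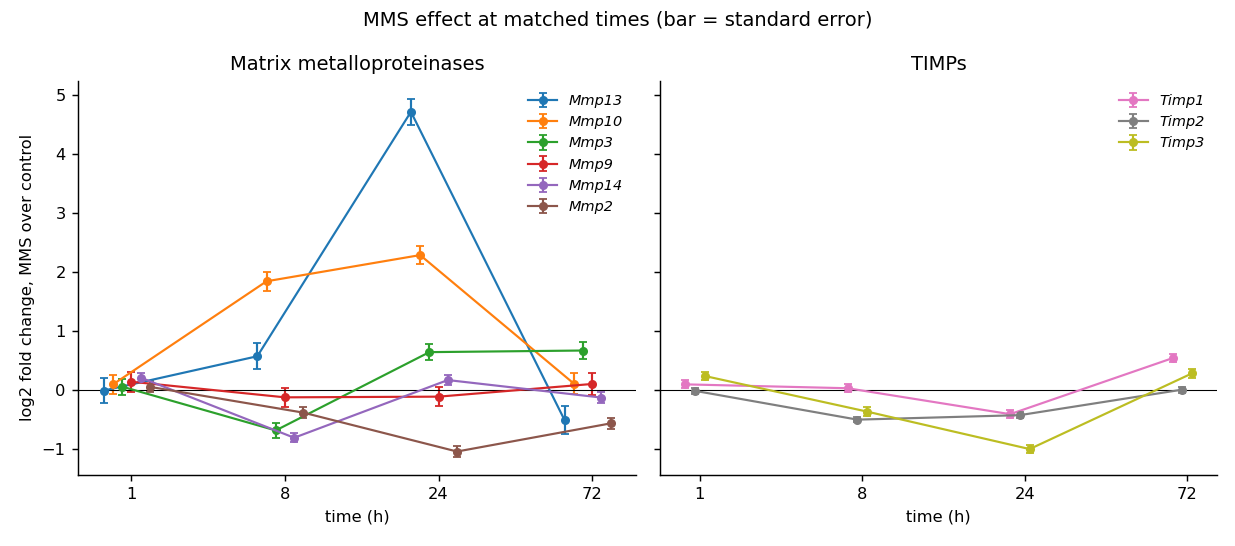
Log2 fold change of MMS over control (y axis) at 1, 8, 24 and 72 h (x axis, evenly spaced) for the 6 MMPs and the 3 TIMPs, with bars giving the standard error of the limma fit. Mmp13 peaks at 4.72 and Mmp10 at 2.29 at 24 h, Mmp3 turns from -0.69 at 8 h to 0.64 at 24 h, and the TIMPs are lowest at 24 h or 8 h and at or above 0 at 72 h.

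The fibroblast markers moved with these falls. Of 17 markers tested, 14 were lower with MMS at 8 h, 16 at 24 h and 7 at 72 h, with median log2 fold changes of -0.61, -1.0 and -0.22. Of all genes, 25%, 19.4% and 10.4% were lower and 28.7%, 25% and 10.1% higher at these times. The mean level of the fibroblast markers was 9.93 to 10.17 in MMS 24 h arrays, against 10.99 to 11.09 in control 24 h arrays. Of 18 macrophage markers tested, 11 were lower and 1 was higher with MMS at 8 h, and 3 were higher at 24 h and 2 at 72 h. Their part in the members' results was not tested.

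Control cells were compared with control cells at 0 h to describe the members over time without MMS. Time in culture, the change of medium and, at 8 h, the difference of the arrays described above cannot be told apart in these comparisons. These comparisons share the 0 h arrays, as they share the later controls with the MMS comparisons. At 8 h, 5 members were higher and 2 lower than at 0 h, beside 35.8% and 23.6% of all genes tested (59.4% in either direction). At 1 h, 2 were higher and 1 lower (7.22% and 4.38% of all genes, 11.6% in all). At 24 h, Timp1 and Timp3 were higher and none lower by limma (9.12% and 2.06%, 11.2% in all), with 1 lower at an unadjusted p under 0.05. At 72 h, 6 were higher and 1 lower (21.8% and 16.3%, 38.1% in all).

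The inducible MMPs were raised in 8 h controls. Mmp13 was at 5.72 to 6.31 in control 8 h arrays and 3.09 to 3.87 in control 0 h arrays, all of the 0 h arrays being under the limit, which makes it at least 3.30-fold higher (fitted log2 fold change 2.79, adjusted p 5.0e-12). Mmp10 was higher by 1.98 (adjusted p 6.4e-12), Mmp3 by 1.85 (adjusted p 8.0e-13) and Mmp9 by 1.47 (adjusted p 8.7e-09). Macrophage markers rose in the same arrays, 18 of 18 tested, with a median log2 fold change of 3.70, and their part in these rises was not tested. In control 24 h arrays the log2 differences from 0 h were -0.12 for Mmp3, 0.04 for Mmp9, -0.13 for Mmp10 and -0.11 for Mmp13, none of them called.

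Mmp2 fell at 8 h in controls, to 9.58 to 9.82 in control 8 h arrays, against 11.46 to 11.69 in control 0 h arrays, a log2 fold change of -1.87 ± 0.09 (adjusted p 1.0e-16). By 72 h it was above 0 h by 0.78 (adjusted p 4.8e-08), as were Mmp3 by 0.94 (adjusted p 1.6e-06), Mmp14 by 0.35 (adjusted p 0.00079) and Timp2 by 0.31 (adjusted p 4.3e-06). For Timp3 the probe set used was higher by 0.47 (adjusted p 5.7e-06), but the 4 probe sets ran from -0.11 to 0.47 with 1 of them called, and their mean gave 0.13 (adjusted p 0.34). Mmp13 was at least 1.55-fold higher at 72 h than at 0 h, where all arrays lay under the limit (fitted log2 fold change 1.70, adjusted p 3.0e-07). Timp1 took another course in controls, higher by 0.29 at 1 h (adjusted p 0.0033), 0.73 at 8 h (adjusted p 1.2e-10) and 0.70 at 24 h (adjusted p 2.2e-08) and lower by -0.42 at 72 h (adjusted p 9.4e-06).

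Timp3 was higher in control 1 h arrays than at 0 h by 0.39 (adjusted p 0.00040) and Mmp14 lower by -0.32 (adjusted p 0.0073). In a fit of these 2 groups alone the 1 h calls of Timp3, Mmp14 and Timp1 were all lost (adjusted p 0.059, 0.072 and 0.11). Of the 4 probe sets of Timp3 1 was called at 1 h, and their mean gave 0.28 (adjusted p 0.063). Control 0 h replicate 3, the array with the most intestinal markers, was at the edge of its group for all 9 members, lowest for 7 of them and highest for Mmp10 and Mmp13. Without this array alone Timp2 and Timp3 at 8 h (-0.12, adjusted p 0.038, and -0.16, adjusted p 0.042) and Mmp14 at 24 h (-0.26, adjusted p 0.033) were called lower than at 0 h, and the call of Timp3 at 24 h, 0.22 with an adjusted p of 0.049, was lost (0.13, adjusted p 0.25).

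The probe sets of a gene did not read the 8 h controls alike. Against control 0 h, the 3 probe sets of Mmp14 gave -3.39, -0.59 and 0.49, the 6 of Timp2 gave -3.62 to -0.02, and the 4 of Timp3 gave -2.10 to -0.07. On the probe set of Timp2 that differed most, 1420924_at, the mean was 7.39 in control 8 h arrays and 11.01 in control 0 h arrays, while the one used read 13.08 and 13.15. The levels of Mmp14, Timp2 and Timp3 at 8 h relative to other times therefore rest on the probe set chosen, and the cause was not tested. For MMS against control at 8 h the same probe sets lay closer, at -0.87 to -0.61 for Mmp14, -0.73 to 0.03 for Timp2 and -0.41 to -0.31 for Timp3. At 24 h all 6 probe sets of Timp2 and all 4 of Timp3 were called lower with MMS. Mmp3, Mmp10, Mmp13 and Timp1 have 1 probe set each and no such check.

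**Figure D5:**
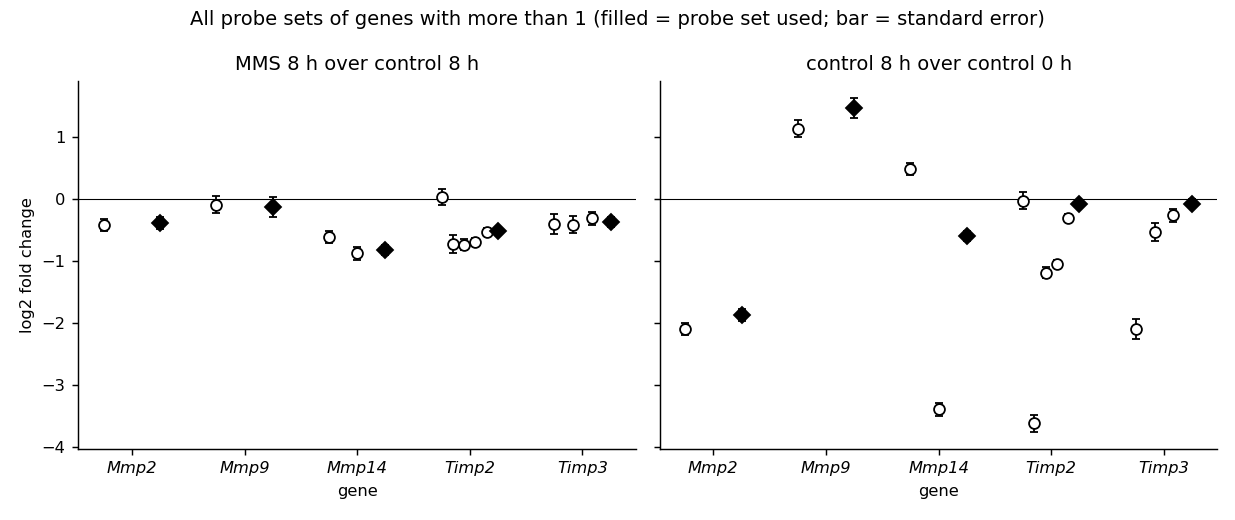
Log2 fold change (y axis, bars giving the standard error) of every probe set of the 5 members with more than 1 (x axis), for MMS 8 h over control 8 h on the left and control 8 h over control 0 h on the right, filled diamonds being the probe sets used. On the right those of Mmp14 spread from -3.39 to 0.49 and those of Timp2 from -3.62 to -0.02, and on the left the spread within a gene is 0.77 or less.

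The order of the 9 group means differed between the members. Mmp10 had its highest mean in MMS 8 h, 8.31 ± 0.10 (SD, n = 4), clear of all other groups, then MMS 24 h and control 8 h, whose arrays overlapped, and then 6 groups between 4.35 and 4.58 in which each overlapped its neighbour. Mmp13 was highest in MMS 24 h at 7.94 ± 0.09 (SD, n = 4), clear of MMS 8 h, and the 4 lowest groups, between 3.23 and 3.44, overlapped and lay under the limit. Mmp3 was highest in control 8 h at 6.95 ± 0.19 (SD, n = 4), where it overlapped MMS 72 h at 6.70 ± 0.13 (SD, n = 3).

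Mmp2 was highest in control 72 h at 12.37 ± 0.12 (SD, n = 4) and lowest in MMS 8 h at 9.33 ± 0.08 (SD, n = 4), and its MMS 24 h, control 8 h and MMS 8 h arrays each stood clear of the next. Mmp14 and Timp2 were likewise lowest in MMS 8 h, at 10.66 ± 0.07 and 12.57 ± 0.04 (SD, n = 4 each), and Timp3 in MMS 24 h at 10.87 ± 0.09 (SD, n = 4). Timp1 was lowest in control 72 h at 12.32 ± 0.06 (SD, n = 4). Each of these lowest groups was clear of the group above it. For Mmp14, Timp2 and Timp3 this order holds for the probe set used, as their probe sets read 8 h controls differently against 0 h. Those of Timp3 ran from -2.10 to -0.07 there, with 3 called lower.

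Over the 35 arrays the levels of Mmp10 and Mmp13 had a Pearson r of 0.82, and 0.89 over the 27 arrays without the 8 h ones. For Mmp2 and Timp2 r was 0.84 and 0.93, for Timp2 and Timp3 0.84 and 0.87, and for Mmp10 and Mmp2 -0.92 and -0.80. Mmp9 and Mmp10 had 0.70 over all arrays and -0.19 without 8 h. The genes most like each member were Maged2, Ogn and Fn1 for Mmp2 (r 0.99, 0.99 and 0.98), Mrpl45, Creg1 and Cd14 for Mmp10 (0.98, 0.97 and 0.97), Ifi30, Kitl and Sf3b2 for Mmp13 (0.94, 0.93 and 0.93) and Klk8, Pik3cd and Fcgr3 for Mmp9 (0.94 each). For Mmp14 they were Robo1, Itgb5 and Masp1 (0.96 each), for Timp2 Scd2, Mxra7 and Ndnf (0.97, 0.96 and 0.96), for Timp3 Ppm1l, Rnd3 and Plxna3 (0.91 each), for Timp1 Fxyd5, Acot7 and Plekho1 (0.89, 0.88 and 0.88) and for Mmp3 Fam174a, Nudt16 and Iscu (0.88 each). The genes most like each member were found over all 35 arrays, the 8 h ones included, and their r without 8 h was not computed. Cd14 and Fcgr3 are among the macrophage markers. All these points share their arrays and groups, so the values describe the arrays and carry no test.

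Other MMPs were examined from a list of 17, of which 12 were measured and 8 tested. With MMS, 1 was higher and 3 were lower at 8 h, 1 was higher with 4 lower after 24 h, and 3 were lower after 72 h. Of all genes, 28.7%, 25% and 10.1% were higher and 25%, 19.4% and 10.4% lower at these times. The rise in this list at 8 h was that of Mmp12, macrophage elastase, which lies between Mmp13 and Mmp3 in the cluster. It read 8.41, 8.44, 8.56 and 8.52 in MMS 8 h arrays and 6.10, 6.07, 5.67 and 6.23 in control 8 h arrays, 5.52-fold higher (log2 2.46 ± 0.10, adjusted p 3.9e-19), and stayed under the limit in every array of the other times. Of 18 macrophage markers 11 were lower with MMS in the same arrays, and their part in the level of Mmp12 was not tested. Of the cluster, Mmp1a, Mmp1b, Mmp8 and Mmp20 stayed under the limit in all groups.

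Mmp16, another membrane-type MMP, was lower with MMS at 8, 24 and 72 h. It read 6.74, 6.47, 6.43 and 6.65 in MMS 24 h arrays and 7.84, 7.98, 7.94 and 8.02 in control 24 h arrays, and its log2 fold change was -1.01 at 8 h, -1.37 at 24 h and -1.03 at 72 h. Mmp23 was lower by -0.35, -1.50 and -0.88 at these times. Mmp11, stromelysin 3, was lower by -0.29 at 8 h, higher by 0.56 at 24 h and lower by -0.44 at 72 h. The median log2 fold change of the 8 was -0.07, -0.26 and -0.21 at 8, 24 and 72 h.

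ADAM and ADAMTS metalloproteinases, which shed cell surface proteins and cut proteoglycans and of which several are targets of Timp3, were examined as a list of which 19 were tested. With MMS, 11 of them were lower at 8 h, 10 were lower with 3 higher after 24 h, and 8 were lower with 2 higher after 72 h. Of all genes, 25%, 19.4% and 10.4% were lower and 28.7%, 25% and 10.1% higher at these times. None of the 19 was called at 1 h by limma, with 1 higher at an unadjusted p under 0.05. Adamts5, an aggrecanase, read 5.46, 5.50, 5.55 and 5.54 in MMS 8 h arrays, against 7.72, 8.11, 7.74 and 8.04 in controls, with log2 fold changes of -2.39, -2.41 and -1.15 at 8, 24 and 72 h. Adamts12 was lower by -2.09, -2.32 and -0.69, Adamts1 by -2.08 at 24 h and -1.44 at 72 h, and Adam19 and Adam12 by -1.37 and -1.24 at 8 h. Adam8 was higher by 0.57 at 24 h and 0.80 at 72 h, and Adam17, which sheds cytokines and growth factors, by 0.45 at 24 h. The median of the 19 was -0.59, -0.28 and -0.13 at 8, 24 and 72 h.

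Among 17 other inhibitors, activators and surface partners of MMPs, 12 were lower with MMS at 8 h and 2 higher, 5 were lower after 24 h and 4 higher, and 2 were lower after 72 h and 6 higher. Of all genes, 25%, 19.4% and 10.4% were lower and 28.7%, 25% and 10.1% higher at these times. Plaur, the receptor of urokinase, was higher at all 3 times, by 0.56, 0.79 and 1.13. At 72 h it read 8.43, 8.63 and 9.16 after MMS and 7.69, 7.68, 7.49 and 7.60 in controls. Serpinb2, an inhibitor of plasminogen activators, was higher by 1.58 at 24 h. At 72 h its 4 controls lay under the limit, and it was at least 1.24-fold higher (fitted log2 fold change 1.14, adjusted p 0.00011). Itgb3 had the largest fall of this list at 8 h, with a mean of 6.44 in MMS 8 h arrays and 8.27 in control 8 h arrays. Plat, tissue plasminogen activator, was lower by -1.03 at 8 h and -1.35 at 24 h, and Plau, urokinase, by -1.15 at 8 h. Cd44, a surface partner of MMPs, was higher by 0.83 at 72 h, and Reck, a membrane-anchored MMP inhibitor, was lower by -0.50 there. The median of the 17 was -0.41, -0.15 and 0.05 at 8, 24 and 72 h.

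Of 12 AP-1, ETS and RUNX factors tested, 1 was higher with MMS at 1 h (Junb, 0.67, adjusted p 0.012), 3 were higher and 5 lower at 8 h, 6 were higher with 1 lower after 24 h, and 6 were higher after 72 h. At 1 h 0.361% of all genes were higher. At 8, 24 and 72 h 28.7%, 25% and 10.1% of all genes were higher and 25%, 19.4% and 10.4% lower. Fosl1, an AP-1 subunit, read 10.79, 10.52, 10.60 and 10.70 in MMS 8 h arrays and 9.84, 9.87, 9.85 and 9.76 in controls, and was higher by 0.82, 0.92 and 1.36 at 8, 24 and 72 h. Junb was higher by 0.60 at 8 h and 0.84 at 24 h and Fos by 0.79 at 24 h, whereas Jun was lower by -0.48 at 8 h and Runx1 by -1.51. The median of the 12 was -0.01, 0.30 and 0.22 at 8, 24 and 72 h.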

How the data were processed

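Expression was measured on Affymetrix mouse arrays in 35 cultures. The authors deposited log2 values normalized by RMA (version not stated) for 45101 probe sets, of which 34958 have a single symbol in the platform annotation, 932 have more and 9211 have no symbol. For 99.4% of the first kind the gene identifier was in RefSeq. The values analysed hold no MMS 72 h replicate 4. Values ran from 2.44 to 14.62 and array medians from 4.98 to 5.09. The number of arrays limits the precision.

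Each gene was read from its brightest probe set on average. It was tested where any group averaged at least log2 4.40, the 40th percentile over the table, and 4059 genes stayed under this limit. One linear model of the 9 groups (26 residual degrees of freedom) was fitted with limma 3.58.1 in R 4.3.3. P-values were two-sided, adjusted by Benjamini-Hochberg over the 14135 genes of a contrast, with a threshold of 0.05. The methods of the study name a permutation analysis by the array service without its settings, and this model stands in for it. Calls of single probe sets were adjusted over all probe sets with a single symbol, without the limit. Where all arrays of a group lay under the limit in the fit of all arrays, the fold against the limit is given as a lower bound. For Mmp10 at 24 h the bound was also given, as the mean of the controls lay under the limit. The labels call the cultures biological replicates without naming embryos, so p-values measure the spread between cultures. The code was tested on simulated data.

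Members and gene lists were chosen with earlier results of these data known. Named are all members and the 3 genes most like each member. From the lists, up to 4 genes per direction and time with the largest change among those called were set aside, and only some of these are named. Array weights, median centring, a repeated quantile normalization, other filters, averaged probe sets, fits of a contrast's own groups, replicate blocks and fits without certain arrays were alternatives. The fits without the arrays in which most intestinal markers were raised and without the 8 h arrays were added after seeing the data.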

Additional observations from a re-analysis of the deposited data

Results flagged for a closer look

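The MMS effect of several members differed between time points by the test of the difference itself. From 8 to 24 h the log2 effect moved by 4.15 for Mmp13, 1.33 for Mmp3 and 0.98 for Mmp14, and by -0.66 for Mmp2, -0.64 for Timp3 and -0.44 for Timp1. From 24 to 72 h it moved by 1.29 for Timp3, 0.95 for Timp1, 0.48 for Mmp2 and 0.43 for Timp2, and by -5.23 for Mmp13 and -2.18 for Mmp10. With the limit in place of the 24 h controls, which lay under it, the changes of Mmp13 were 2.97 and -4.06. Timp1 and Timp3 were lower with MMS at 24 h and higher at 72 h, and Mmp3 was lower at 8 h and higher at 24 h.

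Single arrays lay far from the other 3 of their group in 4 of the 72 sets of 4 arrays tested, and chance alone gives about 1 in 20. Mmp13 read 5.72 in control 8 h replicate 1, against 6.21 to 6.31 in the others. Mmp14 read 11.72 in MMS 1 h replicate 4, against 12.02 to 12.05. Timp2 read 13.01 in control 0 h replicate 3, the array with 18 of 19 intestinal markers raised, against 13.18 to 13.20, and 13.14 in control 8 h replicate 4, against 13.05 to 13.06.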

How the results depend on the processing

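Of the members' results under each alternative, 1763 kept their direction and side of the threshold, 34 gained and 34 lost the call, 67 others moved and 1 reversed. The one that reversed was the change of the MMS effect on Timp2 between 8 and 24 h, 0.08 in the probe set used and -0.20 (adjusted p 0.029) in the mean of all its probe sets. Counts of members called that moved by over 1.5 times were these. Array weights gave 2 higher at 1 h, 1 higher at 8 h and 2 lower at 72 h with MMS, and in controls against 0 h 4 lower at 8 h, 1 higher and 1 lower at 24 h, and 2 lower at 72 h. Without the arrays with most intestinal markers raised, 2 were lower with MMS at 72 h. In controls at 1 h the count lower was 0 with median centring, and higher and lower were 0 in a fit of the contrast's groups and with the replicate block within time points, while 1 was higher with averaged probe sets. At 8 h, 4 were lower with averaged probe sets and without arrays carrying intestinal markers (either rule). At 24 h, 1 was higher with median centring, quantile normalization, no filter, averaged probe sets, the contrast's own groups, either replicate block, without the intestinal arrays (either rule, 1 then lower) and without the 8 h arrays. Smaller moves also occurred. Array weights gave 4 higher with MMS at 24 h (Mmp14 added), and averaged probe sets 5 higher in 72 h controls (Timp3 lost). The change from 8 to 24 h had 4 upward with array weights, the contrast's own groups and without the arrays with most intestinal markers raised (Mmp10 added) and 4 downward with averaged probe sets (Timp2). The change from 24 to 72 h had 3 downward with the filter at the 60th percentile, array weights and without the arrays with at least 80% of intestinal markers raised (Mmp14 added).

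Leaving out 1 array at a time gave 1 to 2 higher at 8 h, 3 to 4 higher at 24 h, 2 to 3 higher and 1 to 2 lower at 72 h with MMS, 2 to 4 lower at 8 h, 1 to 2 higher and 0 to 1 lower at 24 h in controls, and 2 to 3 lower for the change from 24 to 72 h. The other counts did not move. At no time point were the deviations of all same-numbered MMS and control arrays clearly correlated, so the arrays were not treated as paired. The 4 arrays with most intestinal markers raised were all replicate 3. Whether cultures of the same number shared a source was not tested. Correlations of same-numbered deviations were 0.09 to 0.31 at 1 h, -0.04 to 0.11 at 8 h, -0.26 to 0.16 at 24 h and 0.02 to 0.18 at 72 h, and 3, 3, 1 and 1 samples correlated best with their own number. With the replicate block within time points the calls of Timp3 with MMS at 72 h (0.28, adjusted p 0.12), of Mmp14 and Timp2 in 72 h controls (adjusted p 0.068 and 0.052) and of the change in the effect on Mmp2 from 24 to 72 h (0.45, adjusted p 0.072) were lost and that of the change in the effect on Mmp10 from 8 to 24 h (adjusted p 0.027) was gained, beside the losses in 1 and 24 h controls above. Over all genes 24 rather than 55 were then called at 1 h and 1453 rather than 2895 at 72 h.

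Over all genes, median centring moved the share of calls that were higher to 44.8% at 24 h, against 56.3%, to 37.2% for the change from 8 to 24 h, against 51.2%, and to 59.8% for that from 24 to 72 h, against 42.9%. It shifted the median change from 8 to 24 h to -0.15, against -0.03, and that from 24 to 72 h to 0.07, against -0.04. In controls at 1 h the share was 74.6%, against 62.3%. Array weights called 457 genes at 1 h and 5617 at 72 h with MMS, and 4744 rather than 1640 at 1 h and 4843 rather than 1580 at 24 h in controls. There the fit of the contrast's own groups called 870 and 663, and the replicate block within time points 289 and 179, with 2619 rather than 5381 at 72 h. Low levels limit Mmp10, Mmp13 and Mmp9, whose group means lie near or under the limit.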
